A study of Mus musculus with 12 samples.

Results

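The genes described here encode paired receptors of myeloid cells, in which closely related surface proteins carry either an inhibitory tail or a tail that couples to an activating adaptor. They are the 10 genes Pirb, Lilrb4, Pilra, Pilrb1, Pilrb2, Cd300a, Cd300lf, Sirpa, Cd33 and LOC100038947, chosen by name, and all 10 were found among the 24062 entries of the expression tables. LOC100038947 is listed in RefSeq, by its gene ID, as Sirpb1c, and Lilrb4 as Lilrb4a.

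The cells were BV2, a permanently growing mouse line derived from microglia. Spi1, which encodes the transcription factor PU.1, was lowered for a short time with a short hairpin RNA or raised from a cDNA, and the cells were then sorted by flow cytometry. There were 3 libraries with Spi1 knockdown and 3 of its scrambled control, and 3 libraries with Spi1 overexpression and 3 of its empty control, so that each experiment had its own controls. Whether the 3 libraries of a group are separate cultures is not given in the labels. The p-values therefore rest on the spread among libraries alone, and that spread may be technical. All groups are of 1 cell line, and the 4 groups were given no other treatment.

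Inhibitory members of these families carry immunoreceptor tyrosine-based inhibitory motifs (ITIMs), which recruit the phosphatases SHP-1 and SHP-2 once Src-family kinases have phosphorylated them. Activating members have short tails and rely on adaptors such as DAP12, the product of Tyrobp, whose activating motifs (ITAMs) recruit the kinase Syk. In microglia and other macrophages the pairs are known for setting thresholds for phagocytosis and inflammatory signalling, and PU.1 is required for the myeloid state in which they are expressed.

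In the knockdown experiment 8 of the 10 genes fell, where 8.86% of all 11214 genes tested were called lower, and Lilrb4 and Sirpa, the most abundant pair of the 10, did not pass the test. The fall covered inhibitory genes (Pirb, Pilra, Cd300a, Cd300lf) and activating genes (Pilrb1, Pilrb2, LOC100038947) as well as Cd33. In the overexpression experiment none of the 10 passed.

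Upstream windows of 250 bases were available from RefSeq (GRCm38.p6) for 8 of the 10 genes, all but Lilrb4 and Sirpa. PU.1 is known to bind purine-rich DNA around a GGAA core, so the windows were searched on both strands for the word GAGGAA, for the word GGAAGT, and for the longer word GAGGAAGT that contains both. The window of Pirb is shown because it alone of the 8 held GAGGAAGT, a word present in 2.44% of 32851 promoter windows of the same length. Its window lies on the minus strand at chr7:3720383-3720632, and the capitals mark GAGGAA, in either orientation, and GAGGAAGT, which lies at positions -120 to -113 from the start.

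Pirb: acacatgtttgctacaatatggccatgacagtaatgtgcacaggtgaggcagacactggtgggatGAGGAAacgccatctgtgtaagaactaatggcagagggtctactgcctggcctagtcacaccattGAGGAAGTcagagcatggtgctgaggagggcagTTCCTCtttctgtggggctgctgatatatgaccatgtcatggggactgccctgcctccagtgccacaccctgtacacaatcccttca

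The windows of Pilra, Pilrb1 and Pilrb2 are shown because this family holds 1 inhibitory and 2 activating genes with nearly the same upstream sequence. The windows of Pilrb1 (chr5:137858050-137858299) and Pilrb2 (chr5:137871759-137872008), both on the minus strand, were identical at 246 of 250 bases (98.4%), and capitals mark the 4 bases that differ. The window of Pilra (chr5:137836279-137836528, minus strand) matched that of Pilrb2 at 195 of 196 bases and that of Pilrb1 at 192 of 196 bases once shifted by 54 bases. In Pilra the capitals mark GAGGAA.

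Pilra: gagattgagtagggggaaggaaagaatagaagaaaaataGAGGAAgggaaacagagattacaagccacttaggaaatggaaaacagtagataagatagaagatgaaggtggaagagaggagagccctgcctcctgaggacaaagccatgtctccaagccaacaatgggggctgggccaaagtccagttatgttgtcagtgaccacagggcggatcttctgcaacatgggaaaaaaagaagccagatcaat

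Pilrb1: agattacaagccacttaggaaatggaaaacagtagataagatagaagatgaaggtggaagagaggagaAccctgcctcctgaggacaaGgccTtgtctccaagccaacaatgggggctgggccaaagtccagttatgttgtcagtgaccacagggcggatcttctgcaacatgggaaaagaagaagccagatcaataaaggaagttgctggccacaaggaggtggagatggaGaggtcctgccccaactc

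Pilrb2: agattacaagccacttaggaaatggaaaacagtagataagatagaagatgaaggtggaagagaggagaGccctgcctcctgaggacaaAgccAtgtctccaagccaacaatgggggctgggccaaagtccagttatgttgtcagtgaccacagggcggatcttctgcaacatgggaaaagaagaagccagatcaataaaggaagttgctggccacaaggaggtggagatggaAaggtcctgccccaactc

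GAGGAA, present in 23.3% of all promoter windows, was found in Pirb, Pilra, Cd300a, Cd300lf and Cd33. GGAAGT, present in 19.7%, was found in Pirb, Cd300lf, Cd33, Pilrb1 and Pilrb2, in the last pair at positions -51 to -46. GENCODE M21 annotates Pilrb1 and Pilrb2 up to bases 137858106 and 137871815, so these matches lie inside the genes as annotated there. They also lie past the 196 bases set side by side with Pilra, whose window ends before that place. The window of Cd33 (chr7:43533172-43533421) lies inside its GENCODE gene (43524216 to 43544428). The window of LOC100038947 (chr3:15848488-15848737, minus strand) held none of these words and is shown as the member with no match.

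LOC100038947: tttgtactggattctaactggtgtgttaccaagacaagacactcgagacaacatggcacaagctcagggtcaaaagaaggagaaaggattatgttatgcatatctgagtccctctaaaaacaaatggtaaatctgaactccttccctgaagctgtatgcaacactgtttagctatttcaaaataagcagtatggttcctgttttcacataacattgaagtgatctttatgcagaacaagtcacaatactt

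These matches describe letters in a window and are not evidence of binding.

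Spi1 itself was at 50.9, 42.4 and 52.3 FPKM (fragments per kilobase of gene and per megaread) in knockdown libraries, against 159, 169 and 168 FPKM in scrambled controls. Overexpression libraries held 287, 224 and 206 FPKM of Spi1, against 158, 117 and 131 FPKM in empty controls, and reads of the introduced cDNA cannot be told apart from those of the cell's own gene. The fitted log2 fold change was -1.75 in knockdown (limma on log2(FPKM + 1), Benjamini-Hochberg adjusted p = 0.0007) and 0.81 in overexpression, where it missed the threshold (limma, adjusted p = 0.9999) unless library numbers were used as a block (limma, adjusted p = 0.0357).

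Depth was 22.3 to 33.1 megareads per library. In the overexpression experiment the libraries numbered 2 of both groups stood apart from the other 4 on the first principal component, which held 68.1% of the variance. They had the lowest level of their group in 6 of the 10 receptor genes and the highest in Lilrb4 and Cd33. Macrophage genes such as Cd68 (at least 580 FPKM) and Csf1r (at least 45.3 FPKM) were present throughout, whereas the microglial genes P2ry12 (at most 0.415 FPKM) and Cx3cr1 (at most 0.903 FPKM) were near 0. Of the marker lists of 9 other cell types, 7 summed to less than 1 FPKM in every library and the neutrophil list to at most 5.18 FPKM, while the endothelial list summed to 74.2 to 78.8 FPKM in knockdown and 57.1 to 61.5 FPKM in scrambled controls. Nearly all of the endothelial sum was Kdr, and Cldn5, Cdh5 and Tek each stayed at or below 0.194 FPKM.

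Pirb, an inhibitory receptor for MHC class I molecules on myeloid cells, showed the largest fall of the 10 on the log2(FPKM + 1) scale. With a pseudocount of 0.1 the fall of LOC100038947 was larger (log2 fold change -2.17, against -1.72 for Pirb). Pirb is annotated on chromosome 7 at 3711409 to 3720391, minus strand (GENCODE M21, GRCm38). Its level was 5.21, 4.44 and 5.26 FPKM in knockdown libraries, against 14.5, 17.2 and 18.3 FPKM in scrambled controls. The groups were far from overlapping, and the knockdown mean was 29.8% of the scrambled mean. On the log2(FPKM + 1) scale Pirb fell by 1.56 (SE 0.10, limma, Benjamini-Hochberg adjusted p = 0.0011), the 9th lowest of 11214 genes tested.

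Lilrb4 (Lilrb4a), the other inhibitory gene of the leukocyte immunoglobulin-like receptor group, was by far the most abundant of the 10. It ranked 29th of 11214 genes by its level in scrambled controls. Lilrb4 was at 1229, 1174 and 1188 FPKM in knockdown libraries and at 1420, 1151 and 1166 FPKM in scrambled controls, and the ranges overlapped. The fitted difference was -0.051 (95% interval -0.26 to 0.16, limma, adjusted p = 0.702). The interval leaves out a change as large as that of any of the 8 genes that fell. The log2 ratio of Pirb to Lilrb4 within a library, which does not depend on library scaling, was -7.92 ± 0.12 in knockdown and -6.22 ± 0.34 in scrambled controls (SD, n = 3 each; two-sided exact permutation p = 0.1, the smallest that 3 against 3 allows).

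The paired immunoglobulin-like type 2 receptors lie side by side on chromosome 5. Pilra is the inhibitory member, and Pilrb1 and Pilrb2 are activating members that couple to DAP12. Pilra was at 11.2, 10.6 and 10.4 FPKM in knockdown libraries, against 19.6, 16.3 and 16.1 FPKM in scrambled controls. Pilrb1 was at 5.94, 4.34 and 3.97 FPKM in knockdown, against 11.3, 10.9 and 9.56 FPKM in scrambled controls. Pilrb2, the lowest of the trio, was at 2.31, 1.62 and 1.12 FPKM in knockdown, against 4.19, 3.29 and 3.36 FPKM in scrambled controls. In none of the trio did the groups overlap.

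Pilra fell by 0.64 on the log2 scale (SE 0.086, limma, adjusted p = 0.0040), and Pilrb1 fell by 1.02 (SE 0.13, limma, adjusted p = 0.0037). Pilrb2 fell by 0.80 (SE 0.16, limma, adjusted p = 0.0132). Without the libraries numbered 2, Pilrb1 and Pilrb2 no longer passed (limma, adjusted p = 0.0529 and 0.0834), and 6 of the 10 genes were called, where 1.80% of all genes were called lower. In Pilrb2 the added 1 FPKM compresses the change, since its knockdown mean was 46.6% of the scrambled mean, close to the 44.8% of Pilrb1.

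Ratios within libraries compared the inhibitory gene with its activating relatives. The log2 ratio of Pilra to Pilrb1 was 0.91, 1.30 and 1.38 in knockdown libraries, against 0.79, 0.58 and 0.75 in scrambled controls. These ranges did not overlap (difference 0.49, exact permutation p = 0.1, the smallest possible). The ratio of Pilra to Pilrb2 moved by 0.47 with overlapping ranges (exact permutation p = 0.2). The log2 ratio of Pilrb1 to Pilrb2 averaged 1.54 in knockdown, 1.56 in scrambled controls, 1.54 in overexpression and 1.52 in empty controls, and all 4 ranges overlapped.

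Cd300a and Cd300lf, both on chromosome 11, encode lipid-binding receptors with inhibitory motifs that take part in the recognition of dying cells. Cd300a was at 12.9, 12.6 and 11 FPKM in knockdown libraries, against 18.4, 23.8 and 19.8 FPKM in scrambled controls. Cd300lf was at 48.3, 42.0 and 43.9 FPKM in knockdown, against 77.6, 86.6 and 78.6 FPKM in scrambled controls. Every knockdown library was below every scrambled control in both genes. Cd300a fell by 0.72 (SE 0.11, limma, adjusted p = 0.0051) and Cd300lf by 0.84 (SE 0.078, limma, adjusted p = 0.0015). Their log2 ratio was -1.88 ± 0.13 in knockdown and -1.98 ± 0.10 in scrambled controls (SD, n = 3 each; exact permutation p = 0.5), so the data did not show an unequal fall.

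Sirpa and LOC100038947 belong to the signal regulatory proteins. SIRPα, the product of Sirpa, is the inhibitory receptor for CD47, the "do not eat me" signal, and the SIRPβ1 proteins are activating partners of DAP12. Sirpa was at 108, 103 and 101 FPKM in knockdown libraries and at 103, 112 and 109 FPKM in scrambled controls. The ranges overlapped, and the fitted difference was -0.055 (95% interval -0.20 to 0.09, limma, adjusted p = 0.543). LOC100038947 was at 0.465, 0.464 and 0.229 FPKM in knockdown, against 2.40, 1.87 and 1.83 FPKM in scrambled controls. These values rest on 18, 18 and 11 reads in knockdown, against 90, 67 and 65 reads in scrambled controls, so the gene is measured with far less precision than the others.

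LOC100038947 fell by 1.13 on the log2(FPKM + 1) scale (SE 0.10, limma, adjusted p = 0.0015). This scale understates its change, as the knockdown mean was 19.0% of the scrambled mean and limma-voom on reads recovered from the FPKM steps gave a log2 fold change of -2.46 (adjusted p = 0.0006). The log2 ratio of Sirpa to LOC100038947 was 7.86, 7.79 and 8.79 in knockdown, against 5.43, 5.90 and 5.90 in scrambled controls (difference 2.41, exact permutation p = 0.1, the smallest possible). The activating gene was the lower of the pair by a wider margin in all 3 knockdown libraries.

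Cd33 encodes a sialic acid-binding lectin, and its human counterpart is an inhibitory receptor whose gene is linked to the risk of Alzheimer's disease. Cd33 was at 25.6, 16.1 and 23.9 FPKM in knockdown libraries, against 46.1, 42.9 and 48.7 FPKM in scrambled controls. The groups did not overlap, and Cd33 fell by 1.06 (SE 0.16, limma, adjusted p = 0.0054).

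**Figure D1:**
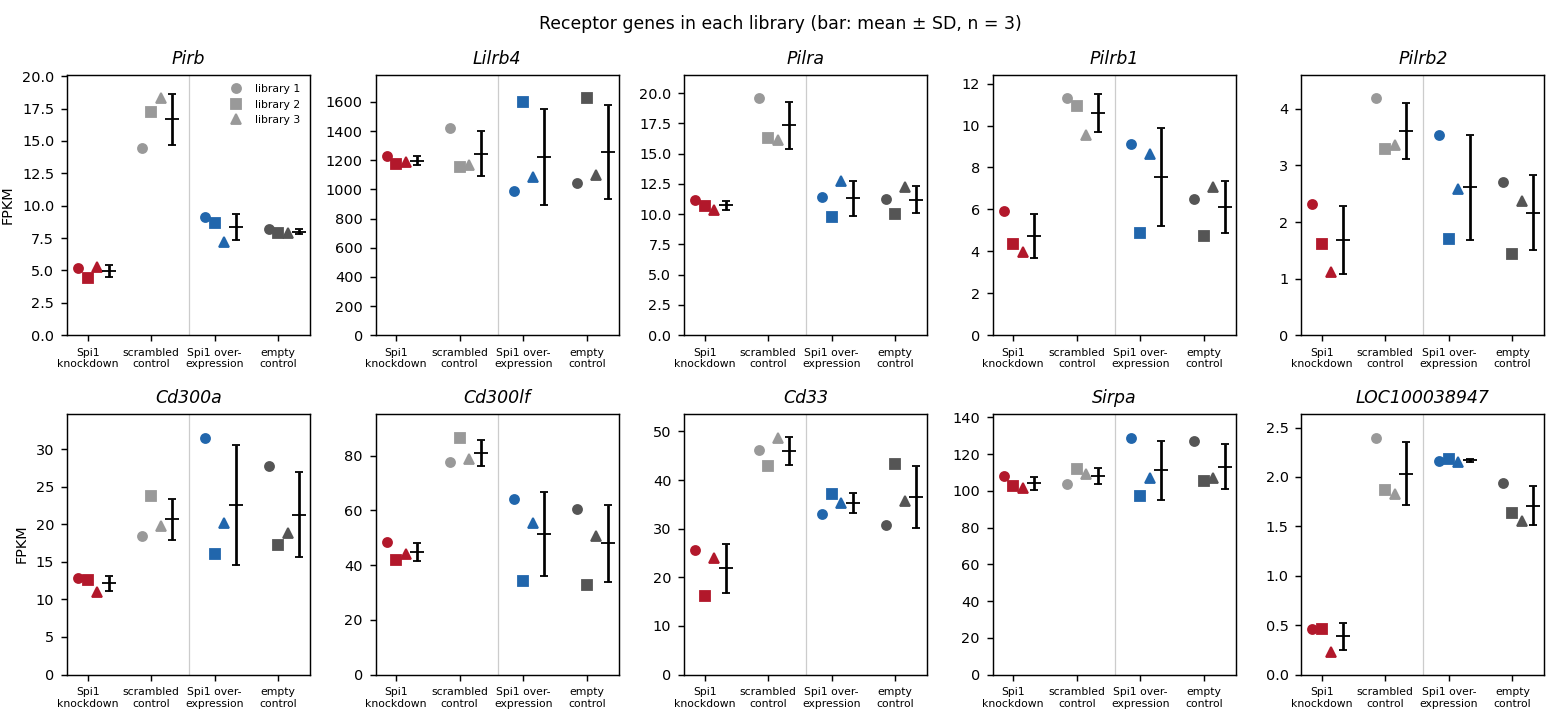
FPKM of the 10 receptor genes in each library (circle, square and triangle for libraries 1, 2 and 3), with the mean ± SD of 3 libraries beside the points; each panel has its own axis starting at 0. Knockdown lies below scrambled control without overlap in 8 genes, Lilrb4 and Sirpa overlap, and the squares stand apart in the overexpression experiment.

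Of the 10 genes, 8 passed in the downward direction and 0 in the upward direction, where 8.86% of the 11214 genes tested were called lower and 17.4% higher. The median fitted log2 fold change was -0.82 over the 10 genes and 0.072 over all genes tested. The split of calls over all genes depends on the scaling: median-of-ratios scaling gave 1454 lower and 1251 higher calls, against 993 lower and 1952 higher without it. In percent these were 13.0% lower and 11.2% higher under that scaling. The same 8 of the 10 genes were called lower under it, and also with library numbers as a block, where 14.7% of all genes were called lower and 30.6% higher. These 8 were also the genes whose groups did not overlap, which held in the downward direction for 15.1% of all genes. The 10 genes were chosen with earlier results in view, so these counts describe them and are not a test.

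The summed level of 14 macrophage and microglial marker genes was also lower in knockdown, at 3088 to 3917 FPKM, than in scrambled controls, at 4682 to 5524 FPKM. Lyz2 held much of that gap, at 935 to 1548 FPKM in knockdown and 2136 to 2841 FPKM in scrambled controls, and the other 13 genes summed to 2154 to 2369 FPKM in knockdown and 2546 to 2683 FPKM in scrambled controls. Of 12 tested markers 7 fell and 1 rose. The part of this list in the fall of the receptor genes was not tested, nor was that of Kdr. In bulk RNA of this kind, fewer cells of a type and less RNA per cell cannot be told apart.

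**Figure D2:**
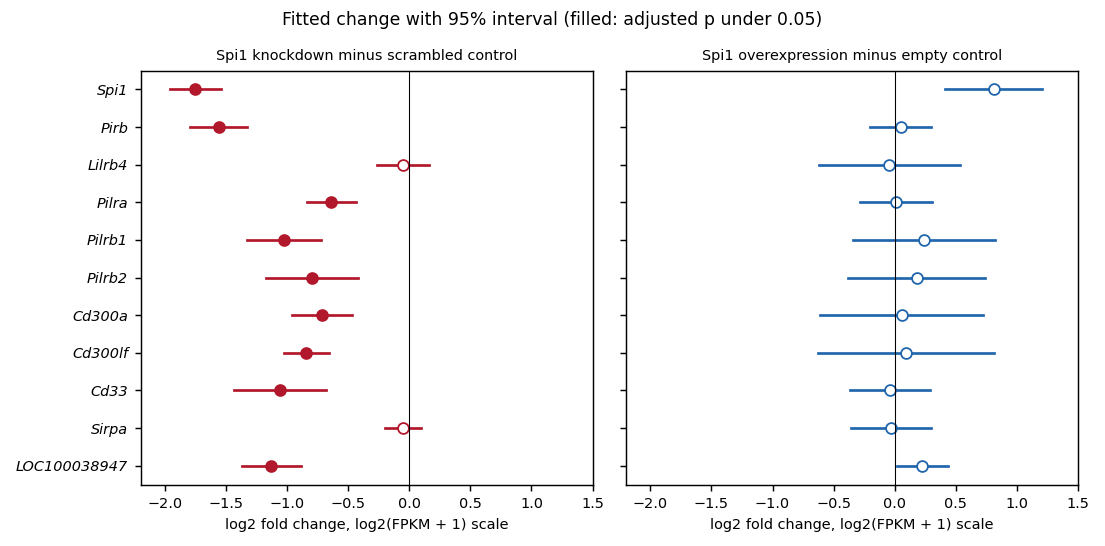
Fitted log2 fold changes with 95% intervals on the log2(FPKM + 1) scale for Spi1 and the 10 receptor genes, knockdown minus scrambled control on the left and overexpression minus empty control on the right; filled points had an adjusted p under 0.05. The 8 filled receptor points on the left lie between -1.56 and -0.64, and no receptor point is filled on the right.

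The controls of the experiments were not alike. Knockdown lay below each of the other 3 groups without overlap in Pirb, Cd300a, Cd33 and LOC100038947, as it did in 5.75% of 11224 genes. In Pilra, Pilrb1, Pilrb2 and Cd300lf, knockdown lay below scrambled control but overlapped empty control. Scrambled control itself lay above empty control without overlap in 5 genes, namely Pirb, Pilra, Pilrb1, Pilrb2 and Cd300lf, and in 7.09% of 11224 genes. The mean of Pirb, for example, was 16.7 FPKM in scrambled control and 8 FPKM in empty control. In Pilra, Pilrb1, Pilrb2 and Cd300lf, a low knockdown and a high scrambled control cannot be told apart by comparison with the other experiment. That experiment had its own controls, which also limits the reading for Pirb, where knockdown lay below empty control and scrambled control above it.

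Reads of close relatives bear on some of these values. In GENCODE M21 transcripts, 35.2% of the 100-base windows of Lilrb4 also occur in another gene, mostly in the overlapping model Gm49339 (31.0%) and in Gp49a (9.67%), which is annotated as Lilr4b. The share was 32.1% in LOC100038947, with Sirpb1b holding 26.9% and Sirpb1a 11.3%, and 20.8% in Pirb, with Pira2 holding 10.7%. In Pilra it was 12%, of which 11.3% lay in Zcwpw1, a gene that overlaps it on the opposite strand, and the library kit does not mark strand. It was 3.53% in Pilrb1, 2.81% in Pilrb2, 0.849% in Cd300a, 0.644% in Cd300lf and 0 in Sirpa and Cd33. These shares refer to all GENCODE transcripts of a gene, not to the gene models that were counted. The length recovered from the FPKM steps was 1500 bases for Lilrb4, against 5227 exon bases in GENCODE. For Pirb it was 2728 against 4471, and for LOC100038947 it was 1456 against 3682. The share among counted reads may therefore be higher or lower. How the authors counted reads with several matches is not stated in those sources that were used.

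The relatives themselves had these values. Gp49a, a neighbour of Lilrb4 that lacks its inhibitory motifs, averaged 565 ± 32.0 FPKM in knockdown and 652 ± 98.7 FPKM in scrambled controls (SD, n = 3 each; log2 fold change -0.20, limma, adjusted p = 0.222). Pira2, an activating relative of Pirb, fell by 1.21 (limma, adjusted p = 0.0015), but 84.1% of its windows also occur in other genes, 71.9% in Gm15922, so this value is uncertain. Sirpb1b and Sirpb1a were too low to be tested in knockdown, with means of 0.267 and 0.130 FPKM in knockdown, against 1.12 and 0.730 FPKM in scrambled controls. Zcwpw1 moved the other way to Pilra, averaging 20.7 FPKM in knockdown and 14.6 FPKM in scrambled controls (log2 fold change 0.48, limma, adjusted p = 0.0253). The part of shared reads in the value of Pilra was not tested.

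**Figure D3:**
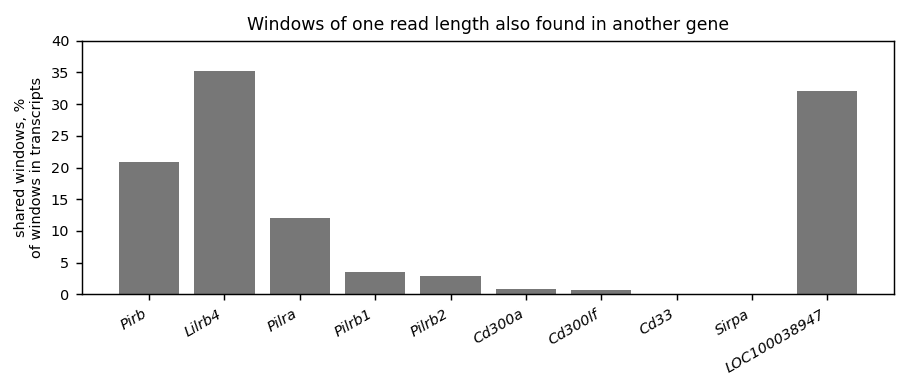
Share of the 100-base windows of each gene's annotated transcripts that also occur, in either orientation, in transcripts of another gene. Lilrb4 (35.2%), LOC100038947 (32.1%) and Pirb (20.8%) share most, and Sirpa and Cd33 share none.

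Overexpression of Spi1 moved none of the 10 receptor genes past the test. Limma called 0 of 11217 genes, or 0%, in this experiment, with 122 at an unadjusted p under 0.05, and limma-voom also called 0. With library numbers as a block, limma called 13 genes (0.116%), 9 higher and 4 lower, and none of the 10 receptor genes. In that fit Pilrb1, Pilrb2 and LOC100038947 had an unadjusted p under 0.05, as did 1577 of all 11217 genes. The median log2 fold change was 0.053 over the 10 genes and -0.014 over all genes tested. The intervals were wide, because libraries within a group differed: the 95% interval of Cd300lf ran -0.63 to 0.81.

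Cd300lf was at 64.3, 34.2 and 55.5 FPKM in overexpression libraries and at 60.4, 32.9 and 50.5 FPKM in empty controls. The library numbered 2 was the lowest in both groups, and the groups overlapped. Lilrb4 showed the opposite pattern, at 986, 1597 and 1085 FPKM in overexpression and 1046, 1625 and 1099 FPKM in empty controls. Cd300a was at 31.6, 16.0 and 20.2 FPKM in overexpression and 27.8, 17.3 and 18.8 FPKM in empty controls, with library 1 the high one in both.

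Within same-numbered pairs the differences were small. Pilrb1, Pilrb2, Cd300lf and LOC100038947 were higher in overexpression in 3 of 3 pairs. Pirb, Pilra, Cd300a and Sirpa were higher in 2 of 3, Cd33 in 1 of 3 and Lilrb4 in 0 of 3. The share of all genes higher in 3 of 3 pairs was not counted, so these counts are descriptions and not a test. Pilrb1 was at 9.11, 4.86 and 8.67 FPKM in overexpression, against 6.50, 4.72 and 7.08 FPKM in empty controls. The fitted log2 fold change of Pilrb1 was 0.24 (limma, adjusted p = 0.9999; with library numbers as a block, adjusted p = 0.312).

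LOC100038947 was the only one of the 10 whose groups did not overlap in this experiment. It was at 2.17, 2.18 and 2.15 FPKM in overexpression, against 1.94, 1.64 and 1.56 FPKM in empty controls, on 88 to 94 reads in overexpression and 57 to 63 reads in empty controls. Among all genes tested, 1.66% lay higher in overexpression without overlap. Its log2 fold change was 0.23 (SE 0.086, limma, unadjusted p = 0.0360, adjusted p = 0.9999). Sirpb1b, with which it shares windows, averaged 1.40 ± 0.27 FPKM in overexpression and 0.864 ± 0.084 FPKM in empty controls (SD, n = 3 each; log2 fold change 0.36, limma, adjusted p = 0.9999). The log2 ratio of Sirpa to LOC100038947 was 5.90, 5.48 and 5.64 in overexpression, against 6.04, 6.01 and 6.10 in empty controls. These ranges did not overlap (difference -0.38, exact permutation p = 0.1, the smallest possible), whereas those of the other ratios did in this experiment.

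**Figure D4:**
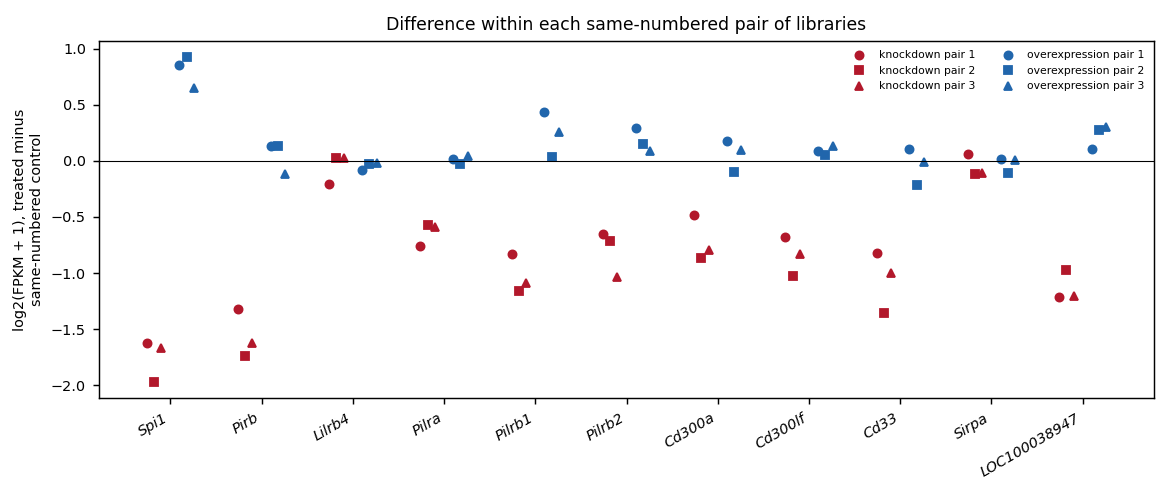
Difference in log2(FPKM + 1) between each treated library and the control of the same number, for Spi1 and the 10 receptor genes (knockdown in red, overexpression in blue). In knockdown 8 receptor genes lie below 0 in 3 of 3 pairs, and in overexpression Pilrb1, Pilrb2, Cd300lf and LOC100038947 lie above 0 in 3 of 3. The share of all genes with 3 of 3 pairs on the same side of 0 was not counted.

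An interaction fit over all 12 libraries compared the effects directly, as the effect of overexpression minus the effect of knockdown. Because Spi1 was moved in opposite directions, a gene that falls in knockdown and stays level in overexpression also gives a positive difference. A positive difference passed in 5 of the 10 genes, where 1.90% of 11224 genes had a positive call and 2.94% a negative one; median-of-ratios scaling gave 3.02% positive and 2.25% negative calls. The 5 were Pirb (1.61, limma, adjusted p = 0.0010), LOC100038947 (1.36, adjusted p = 0.0015), Cd33 (1.02, adjusted p = 0.0313), Pilra (0.65, adjusted p = 0.0374) and Pilrb1 (1.27, adjusted p = 0.0385). With library numbers as a block, Pilrb2 (0.98, adjusted p = 0.0013), Cd300a (0.77, adjusted p = 0.0030) and Cd300lf (0.94, adjusted p = 0.0008) passed too, in a fit where 12.9% of all genes had a positive call. The difference was 0.0081 in Lilrb4 (95% interval -0.60 to 0.62) and 0.024 in Sirpa (95% interval -0.31 to 0.36). Pirb and LOC100038947 kept their call whichever single library was left out, and Pirb, Cd33 and LOC100038947 kept theirs without all libraries numbered 2, where 0.507% of all genes had a positive call.

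**Figure D5:**
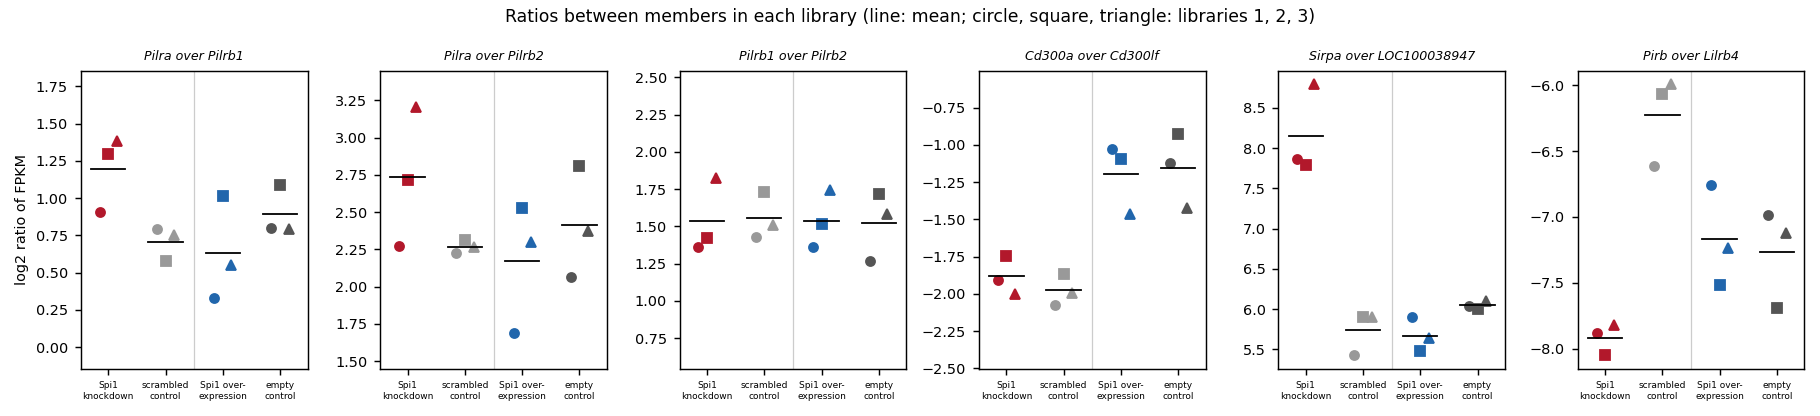
Log2 ratio of FPKM between members of the set in each library (circle, square and triangle for libraries 1, 2 and 3; line, mean of 3), with axes that do not start at 0. Pilra over Pilrb1 and Sirpa over LOC100038947 are higher in knockdown than in scrambled control without overlap, Pirb over Lilrb4 is lower, and Pilrb1 over Pilrb2 is level across the 4 groups. Sirpa over LOC100038947 is also lower in overexpression than in empty control without overlap.

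The partners of these receptors were described by lists of genes. Pira4 and Pira7 had equal recovered reads in 12 of 12 libraries and count as 1 measurement. Of 11 tested activating relatives so counted, 6 fell in knockdown and 0 rose, where 8.86% of all genes were called lower and 17.4% higher. Among them were Pira2, Cd300ld (-0.78), Clec5a (-0.85), which encodes a DAP12-coupled lectin, and Pira4 (-1.27); their limma adjusted p was 0.0015 each. Cd300ld averaged 21.0 ± 0.7 FPKM in knockdown and 36.7 ± 2.5 FPKM in scrambled controls (SD, n = 3 each). Of 8 tested inhibitory relatives, 3 fell, namely Cd200r1 (-0.998), the receptor for CD200, Cd72 (-0.84) and Siglec1 (-0.90). Siglec1 is a sialic acid-binding lectin that is known to lack an inhibitory motif. Whether the other genes of this list carry such a motif was not checked. Pdcd1, which encodes PD-1, rose by 1.27 (limma, adjusted p = 0.0031), with 5.00 ± 0.50 FPKM in knockdown and 1.52 ± 0.51 FPKM in scrambled controls. With library numbers as a block 5 of the 8 inhibitory relatives fell (14.7% of all genes lower), and 4 fell under median-of-ratios scaling (13.0% of all genes lower). The list medians were -0.33 for activating and -0.25 for inhibitory relatives, against 0.072 over all genes tested.

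Among the adaptors, Tyrobp fell by 0.41 (limma, adjusted p = 0.0186), with 341 ± 39.9 FPKM in knockdown and 450 ± 15.9 FPKM in scrambled controls. Hcst, which encodes DAP10, an adaptor that lacks an ITAM and recruits phosphoinositide 3-kinase, rose by 0.67 (limma, adjusted p = 0.0055), with 9.78 ± 0.997 FPKM in knockdown and 5.76 ± 0.728 FPKM in scrambled controls. Fcer1g, the Fc receptor gamma chain with which PIR-A receptors pair, had a log2 fold change of -0.081 (limma, adjusted p = 0.414).

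Of 6 tested kinases of the receptor motifs, 4 fell in knockdown and 0 rose, against 8.86% of all genes lower and 17.4% higher. With library numbers as a block, 5 of the 6 fell (14.7% of all genes lower), as under median-of-ratios scaling (13.0% of all genes lower). Among the 4 were Src (-1.06, limma, adjusted p = 0.0019), Lyn (-0.55, adjusted p = 0.0061), which phosphorylates inhibitory motifs in myeloid cells, and Syk (-0.58, adjusted p = 0.0066). Of 13 genes acting downstream of Syk, 5 fell and 0 rose, led by Pik3ap1 (-0.77, limma, adjusted p = 0.0015), an adaptor for phosphoinositide 3-kinase, and Lcp2 (-0.42, adjusted p = 0.0098), which encodes SLP-76. With library numbers as a block, 9 of the 13 fell and 1 rose (14.7% of all genes lower and 30.6% higher), and median-of-ratios scaling gave 8 that fell (13.0% of all genes lower).

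The 4 phosphatases that inhibitory motifs recruit gave 0 calls by limma in knockdown. An unadjusted p under 0.05 was found in 2 of them, and in 4533 of all 11214 genes. The 2 were Inppl1 (0.21, limma, adjusted p = 0.0587), which encodes SHIP2, and Ptpn11 (0.19, adjusted p = 0.105), which encodes SHP-2. With library numbers as a block both passed as higher (limma, adjusted p = 0.0205 and 0.0244), in a fit where 30.6% of all genes were called higher. Under median-of-ratios scaling their limma adjusted p was 0.223 and 0.278. Of 7 tested ligand genes 1 passed, the MHC class I gene H2-K1, which rose by 0.31 (limma, adjusted p = 0.0237), a share near the 17.4% of all genes called higher. In the overexpression experiment limma called 0 genes in any of these 7 lists, with at most 1 per list at an unadjusted p under 0.05.

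Across the 12 libraries, each experiment centred on its own mean, the receptor genes did not all vary together. Pilrb1 and Pilrb2 were the most alike (Pearson r = 0.95), followed by Pilrb1 with Cd300lf (r = 0.93) and Pilra with Pilrb1 (r = 0.93). Lilrb4 went its own way, with r = -0.71 to Sirpa and r = -0.56 to Cd300lf. Of 10394 genes searched, the closest to Pirb was Clec4a3 (r = 0.99), a lectin receptor gene, and the closest to Lilrb4 were Pfkfb3 and Gp49a (r = 0.99 and 0.98), of which Gp49a shares windows with it. The closest was Clec5a for Cd300lf (r = 0.98), Tnfrsf1a for Cd300a (r = 0.99), Sgsm1 for Pilrb2 (r = 0.98), Dap for Pilrb1 (r = 0.97) and Nucb2 for Pilra (r = 0.96). It was Mfsd11 for Sirpa (r = 0.96), Asb11 for Cd33 (r = 0.98) and Itpr2 for LOC100038947 (r = 0.98). These values are descriptions, since the libraries share treatment groups and the libraries numbered 2 weigh on them.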

How the data were processed

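The authors deposited 2 tables of FPKM values, 1 per experiment, with 24062 entries named by gene symbol; the unit was read from the values. TruSeq RNA v2 libraries of polyA RNA were read on a HiSeq instrument as 100-base single reads, per the labels' protocols. STAR 2.5.2a, featureCounts, DESeq2 1.14, CASAVA 1.8.2, bcl2fastq and the build mm10 appear in the submitters' processing notes, with no role for each. Annotation and handling of multiply matching reads: not given in the sources used here.

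Each FPKM value is a whole multiple of a step per gene, and whole reads were recovered for 17842 of 17842 genes above 0 (within 0.001 read), for depth and limma-voom only. Each library is scaled by its own total, so abundant genes shift all others. With limma 3.58.1 in R 4.3.3, log2(FPKM + 1) was tested in each gene whose mean over the fitted libraries reached 1 FPKM, with Benjamini-Hochberg adjustment over all genes tested and a threshold of 0.05. A fold change on this scale understates that of low genes. The test was checked on simulated data. Symbols used more than once (4 entries) were left out.

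Groups came from the treatment labels and library numbers from the titles. Same-numbered libraries deviated together from their group means (correlation across genes 0.345 to 0.540 in knockdown with scrambled control, 0.513 to 0.845 in overexpression with empty control, against a limit of 0.1), so block fits (library number as a term) stand beside a result where they change its call.

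The 10 receptor genes and the gene lists were chosen with earlier results of these data known. All 10 receptor genes and Spi1 are named. Up to 4 called genes with the smallest p, or 2 that did not pass, are named per list, and the genes most like a receptor gene are those with the highest correlation. A gene admitted by this choice is not reported here. Relatives that share windows were named besides. Windows of 100 bases came from GENCODE M21 transcripts and upstream windows from RefSeq. Alternatives were a pseudocount of 0.1, no filter on low values, median-of-ratios scaling, trend and robust options, limma-voom, the block, and leaving out libraries.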

Additional observations from a re-analysis of the deposited data

Results flagged for a closer look

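For 5 of the 10 receptor genes the effect of overexpression differed from that of knockdown by the interaction test itself (limma, Benjamini-Hochberg adjusted p under 0.05). Of all 11224 genes tested, 1.90% had a positive call and 2.94% a negative one. A fall in knockdown alone gives a positive difference, and the fit used the same knockdown libraries, so it is no separate support for the knockdown calls. The difference, overexpression effect minus knockdown effect on the log2(FPKM + 1) scale, was 1.61 for Pirb, 0.65 for Pilra, 1.27 for Pilrb1, 1.02 for Cd33 and 1.36 for LOC100038947. In each of them the knockdown effect made up most of the difference, since the overexpression effect was 0.050 for Pirb, 0.011 for Pilra, 0.24 for Pilrb1, -0.041 for Cd33 and 0.23 for LOC100038947. Scrambled control lay above empty control without overlap in Pirb, Pilra and Pilrb1, and its part in the difference was not tested.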

How the results depend on the processing

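The count of 8 receptor genes called in knockdown was also found with a pseudocount of 0.1, no filter, median-of-ratios scaling, trend and robust options, limma-voom and the replicate block. Those settings gave 917 to 1646 lower calls over all genes. The count was 7 to 8 when single libraries were left out, since LOC100038947 fell under the filter without scrambled control 1. These fits gave 548 to 782 lower calls over all genes. The count was 6 without all libraries numbered 2, a setting chosen after seeing the data, in which 449 genes were called in all, against 2945. The overexpression count was 0 in every setting run. The count for the difference, 5, was 3 without the filter (Pilrb1 and Cd33 lost), 8 with the replicate block, 3 without all libraries numbered 2 (Pilra and Pilrb1 lost) and 2 to 5 when single libraries were left out. It was 2, Pirb and LOC100038947, without scrambled control 1 or 2, knockdown 3, empty control 3, or overexpression 1 or 3. It was 3 without scrambled control 3, knockdown 1 or 2, or empty control 1 or 2. The 5 called without overexpression 2 held Cd300lf in place of Cd33. Over all genes, positive calls numbered 213 of 11224 in the main fit, 243 of 17838 without the filter and 1447 of 11224 with the block. They numbered 57 of 11237 without all libraries numbered 2, and 68 to 217 when single libraries were left out. Fewer libraries leave fewer degrees of freedom, and other causes of these losses were not tested.

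Signs turned only for values that had passed no test. Without all libraries numbered 2 the overexpression log2 fold change was 0.011 for Sirpa and 0.046 for Cd33. When single libraries were left out, Lilrb4 ran -0.10 to 0.047 in knockdown. In overexpression the ranges were -0.012 to 0.14 for Pirb, -0.25 to 0.16 for Lilrb4, -0.070 to 0.10 for Pilra and -0.0030 to 0.37 for Pilrb2. They were -0.20 to 0.26 for Cd300a, -0.15 to 0.35 for Cd300lf, -0.14 to 0.060 for Sirpa and -0.16 to 0.085 for Cd33. The difference ran -0.20 to 0.21 for Lilrb4 and -0.088 to 0.11 for Sirpa. The log2 ratio of Pilrb1 to Pilrb2 moved by -0.17 to 0.065 in knockdown and -0.11 to 0.12 in overexpression, that of Cd300a to Cd300lf by -0.17 to 0.097 and that of Pirb to Lilrb4 by -0.11 to 0.27, both in overexpression. The block changed no other call of a receptor gene than those given above.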
